A study of Homo sapiens with 3 samples.

Results

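The erythroid miRNAs miR-144, miR-451a and miR-486 were examined in the human leukemia line MV4-11, labelled as acute myeloid (AML) and FLT3-ITD+. The members were chosen by name as the rows hsa-mir-144, hsa-mir-451a and hsa-mir-486 of the table of hairpins, with all of their arms in the table of mature strands. All 3 hairpins had a row among the 661 hairpins listed, and their 5 mature arms were found among 783 mature names. The libraries were 3 replicate cultures of a single line in 1 group, labelled WT in genotype. The cells of this group had received the empty-vector (EV) lentiviral CRISPR-Cas9 construct and were cultured for 2 weeks before RNA was isolated. No other group and no red blood cell sample was analysed here, so the comparisons are between miRNAs. Counts assigned to mature strands ranged from 10991953 to 12694823 per library.

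These miRNAs are among the best known of the red cell lineage. miR-144 and miR-451a are cut from 1 primary transcript that the erythroid factor GATA1 switches on, and both accumulate as red cell precursors mature. miR-451a is made without Dicer: its hairpin is too short for that enzyme, so Argonaute 2 slices it and the cut strand is then trimmed. For this reason only 1 mature strand is annotated from it. miR-486 arises within ANK1, the gene of the red cell membrane protein ankyrin-1, and is also abundant in muscle, where a separate ANK1 promoter is used.

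In the GENCODE annotation of GRCh38, MIR451A spans 28861369 to 28861440 of chromosome 17 and MIR144 spans 28861533 to 28861618, both in the minus orientation and 92 bases apart. Both fall in an exon of the lincRNA AC024267.1. MIR4732, on the same strand 36 bases upstream of MIR144 in the direction of transcription, and MIR451B, which overlaps MIR451A on the plus strand, had no row in the tables used here, so no level is given for them. A further row, hsa-mir-486-2, was not named by the rule and is described here as the copy of miR-486.

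The mature strands of miR-144 are shown because their seeds (bases 2 to 8, in capitals) set which mRNAs they can pair with, and because miR-144-3p has a close relative in these cells. The sequences are from RefSeq (GRCh38.p14), which held 679 of the 783 mature names. miR-144-5p is at chr17:28861583-28861604 and miR-144-3p at chr17:28861548-28861567, both on the minus strand. miR-101-3p is shown at chr9:4850345-4850365 on the plus strand, one of the places it is made from.
miR-144-5p: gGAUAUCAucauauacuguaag
miR-144-3p: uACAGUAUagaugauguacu
miR-101-3p: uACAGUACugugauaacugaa
The seeds of both arms differ, so they form separate groups. miR-101-3p was the only listed name with a sequence that shared bases 2 to 7 with miR-144-3p, and no other name shared them with miR-144-5p. Its seed differs at the last base, as U8C, counted from the 5′ end with the base of miR-144-3p first. miR-101-3p, known as a repressor of EZH2, had 92494, 86118 and 86659 counts in replicates 1, 2 and 3. Its FPKM was above that of miR-144-3p by at least 3557-fold in each library. Nearly all counts of names known to hold this 6-base seed were thus of miR-101-3p. In the MIR144 hairpin (chr17:28861533-28861618, minus strand), shown with its arms in capitals, 15 bases separate the arms.
MIR144: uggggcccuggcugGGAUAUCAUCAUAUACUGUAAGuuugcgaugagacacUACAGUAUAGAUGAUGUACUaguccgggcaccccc

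The first question was how much of each erythroid miRNA the leukemia cells held. All 5 arms were found in every library, but only miR-486-5p exceeded 24 counts in any of them. miR-451a, the most abundant miRNA of mature red cells, had 10, 24 and 18 counts in replicates 1, 2 and 3. Per 1000000 mature counts this was 0.788, 2.18 and 1.54, with Wilson 95% intervals of 0.428 to 1.45, 1.47 to 3.25 and 0.975 to 2.44. Replicates 1 and 2 had intervals with no overlap, and that of replicate 3 overlapped both. Its mean was 71.6 ± 33.3 FPKM (SD, n = 3), which ranked 584 of 783. FPKM, as deposited, is the count per kilobase of the feature and per 1000000 counted reads. Ligation of adapters depends on the sequence of a small RNA, so levels of different miRNAs are not strict molar ratios, and in bulk RNA a few cells with much of a miRNA and many cells with little cannot be told apart. Intervals cover counting error within a library only, not the variation between cultures. The libraries carry no molecular identifiers, so PCR copies are counted and the intervals may be too narrow even for counting error.

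miR-144-3p, the arm usually loaded in red cell precursors, had 13, 23 and 18 counts, at 53.9, 110 and 81.1 FPKM. miR-144-5p had 10, 14 and 15 counts, at 37.5, 60.6 and 61.1 FPKM. For both arms replicate 1 was the lowest library, but all intervals overlapped between libraries. The means were 81.7 ± 28.1 FPKM for miR-144-3p, rank 561, and 53.1 ± 13.5 FPKM for miR-144-5p, rank 650 (SD, n = 3).

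miR-486-5p, the arm that is abundant in red cells and muscle, had 222, 262 and 258 counts. These were 833, 1135 and 1051 FPKM, with a mean of 1006 ± 156 (SD, n = 3) and rank 285. Its counts per 1000000 were 17.5, 23.8 and 22.1, with Wilson 95% intervals of 15.3 to 19.9, 21.1 to 26.9 and 19.5 to 24.9. Replicate 1 was again the lowest, with an interval that did not overlap that of replicate 2. miR-486-3p had 24, 13 and 8 counts, at 94.5, 59.1 and 34.2 FPKM, with a mean of 62.6 ± 30.3 (SD, n = 3) and rank 613. It was the only arm of the 5 that was highest in replicate 1, although its intervals overlapped in all pairs of libraries.

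In order of mean FPKM the arms were miR-486-5p, miR-144-3p, miR-451a, miR-486-3p and miR-144-5p. miR-486-5p stood above miR-144-3p in 3 of 3 libraries, by more than the larger SD of the pair. No other neighbours in this order differed beyond their spread. The libraries also differed as a whole. Over the 781 mature names above 0 in every library, replicates 2 and 3 had median log2 ratios of FPKM to replicate 1 of 0.48 and 0.57. Against these medians, the log2 ratios to replicate 1 were 1.47 and 0.97 for miR-451a, 1.03 and 0.59 for miR-144-3p and 0.69 and 0.70 for miR-144-5p. They were 0.45 and 0.34 for miR-486-5p, and -0.68 and -1.47 for miR-486-3p. The part of the library shift in each of these differences was not tested.

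**Figure D1:**
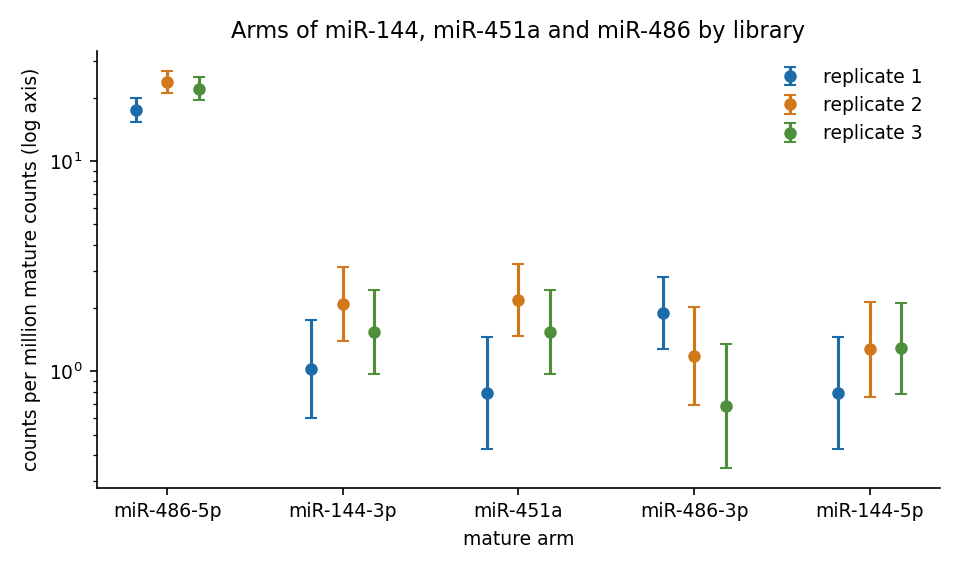
Counts per 1000000 mature counts (log axis) of each mature arm in the 3 replicate libraries, with bars for Wilson 95% intervals. The points of miR-486-5p lie between 17.5 and 23.8, and those of the other 4 arms between 0.685 and 2.18.

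The hairpin table gave the same order with the reads of both arms together. The miR-144 hairpin had 23, 39 and 34 counts and 32.3 ± 10.3 FPKM, rank 412 of 661. The miR-451a hairpin had 10, 24 and 18 counts and 21.1 ± 9.81 FPKM, rank 478. The miR-486 hairpin had 114, 123 and 145 counts and 162 ± 25.8 FPKM, rank 268, and its copy had 132, 152 and 121 counts and 182 ± 31.5 FPKM, rank 265 (SD, n = 3 for each). The miR-486 hairpins thus lay above the middle of the listed hairpins and those of the miR-144 cluster below it. Hairpin FPKM is lower than arm FPKM because it is divided by the length of the whole hairpin. For miR-486 the arm values also sum the rows of a name, while the hairpin rows are given apart.

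**Figure D2:**
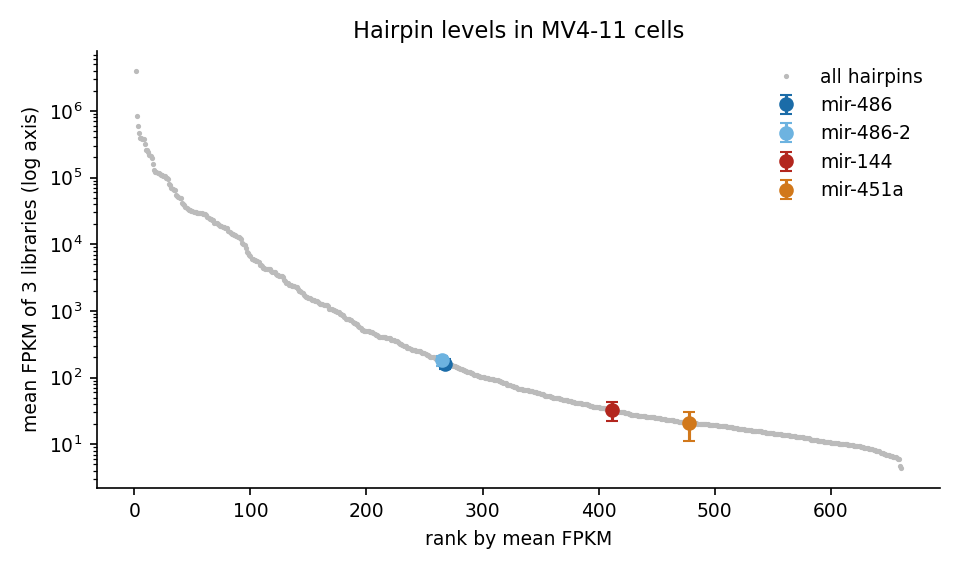
Mean FPKM of 3 libraries (log axis) of all 661 hairpins in order of rank, with the erythroid hairpins in color and bars of 1 SD. The miR-486 rows sit at ranks 265 and 268, mir-144 at 412 and mir-451a at 478.

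The gap between miR-486 and the miR-144 cluster was next measured within each library, where depth cancels. Per length, the miR-486 hairpin exceeded the miR-144 hairpin by 6.29-fold, 4.0-fold and 5.41-fold in replicates 1, 2 and 3. It exceeded the miR-451a hairpin by 12.1-fold, 5.43-fold and 8.54-fold. miR-486 was the higher in 3 of 3 libraries in both cases, and each gap was widest in replicate 1. With edgeR's quasi-likelihood test over all hairpins, the log2 ratio to the miR-144 hairpin was 2.35 ± 0.32 (SE, adjusted p = 9.43e-13). The log2 ratio to the miR-451a hairpin was 3.00 ± 0.46 (SE, edgeR adjusted p = 3.25e-10). Every row of such a fit holds the counts of the same reference hairpin, so the spreads of the rows are not independent and these p-values are too small. In an alternative added after the data were seen, with the spread not shared between hairpins, limma gave adjusted p-values of 0.0163 and 0.0280. The p-values measure the spread between 3 cultures of 1 line, which may be technical. A level above the miR-144 cluster is common in these cells. A hairpin was called with an adjusted p-value under 0.05 and an absolute log2 ratio of at least 1. Of the 660 other hairpins, 70.8% were called against the miR-144 hairpin, 51.1% higher and 19.7% lower. Against the miR-451a hairpin 62.9% were called, 57.9% higher and 5.0% lower.

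The copy of miR-486 gave gaps of similar size. Its log2 ratio was 2.52 ± 0.32 to the miR-144 hairpin (SE, edgeR adjusted p = 1.70e-14) and 3.18 ± 0.46 to the miR-451a hairpin (SE, edgeR adjusted p = 3.14e-11). Both rows cover 1 place in the genome. With the miR-486 rows summed, the log2 ratio rose to 3.44 ± 0.32 against the miR-144 hairpin and to 4.09 ± 0.47 against the miR-451a hairpin (SE, edgeR adjusted p = 4.47e-26 and 1.85e-17). The summed miR-486 rows exceeded the sum of both cluster hairpins by 9.23-fold, 5.33-fold and 6.25-fold. In mature strands, miR-486-5p exceeded miR-451a by 22.2-fold, 10.9-fold and 14.3-fold, and miR-144-3p by 15.5-fold, 10.3-fold and 13.0-fold. Each single miR-486 row holds only part of its reads. As a fold by edgeR, the gap to miR-144 was 5.10 for the miR-486 row and 10.9 for the sum. Against miR-451a these folds were 8.02 and 17.1. The rise follows from adding rows of similar counts.

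Within the cluster, the miR-144 hairpin was above the miR-451a hairpin by 1.92-fold, 1.36-fold and 1.58-fold. The log2 ratio of miR-451a to miR-144 was -0.65 ± 0.38 (SE, edgeR adjusted p = 0.106), with a 95% interval from -1.40 to 0.10, so the pair was not called. In mature strands the ratio of miR-144-3p to miR-451a was 1.44, 1.06 and 1.11. As a fold, the main interval for miR-451a over miR-144 ran from 0.380 to 1.07, and so held equal levels. Between main mature arms it ran from 0.486 to 1.52. Equal levels fell outside the interval without the length offset (0.317 to 0.892) and in limma with unshared spread (0.431 to 0.944). The pair was called in none of these fits.

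**Figure D3:**
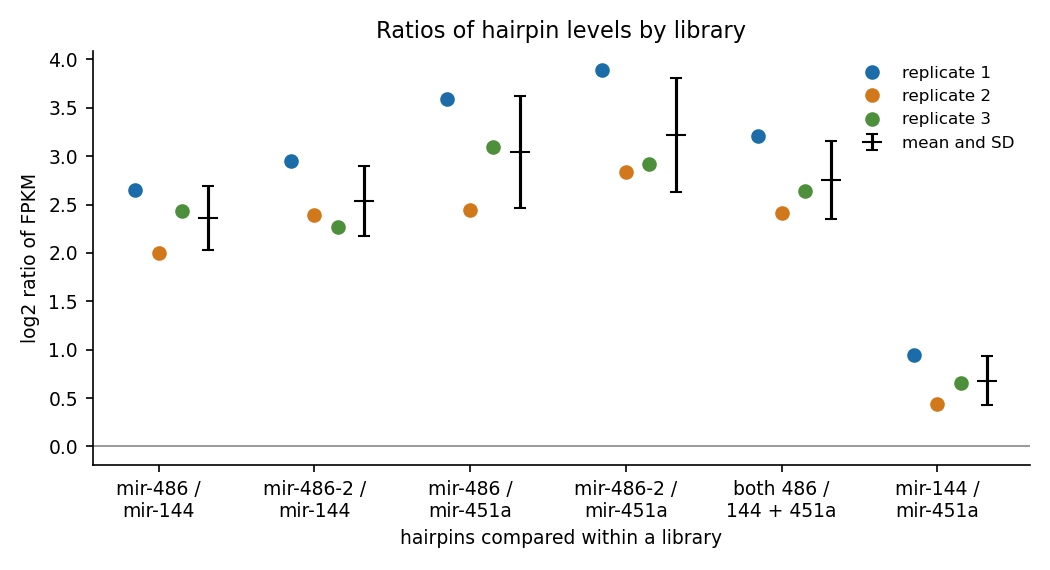
Log2 ratio of FPKM between hairpins of the same library, with a point for each replicate and the mean with SD beside it. All miR-486 ratios lie above 0, and the ratio of mir-144 to mir-451a is nearest to 0, from 1.36-fold to 1.92-fold.

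The arms of each hairpin were then compared, since usually a single strand of the duplex is kept in Argonaute. The 5p arm of miR-486 dominated, with 90.2%, 95.3% and 97.0% of arm counts and Wilson 95% intervals of 85.9% to 93.4%, 92.1% to 97.2% and 94.2% to 98.5%. In counts 5p exceeded 3p by 9.25-fold, 20.2-fold and 32.2-fold. The side was the same in all libraries, but replicate 1 lay below replicate 3 with no overlap of their intervals. The log2 ratio over libraries was 4.12 ± 0.47 (SE, edgeR adjusted p = 0.000428), toward 5p. With TMM scaling over the arm columns it was 3.24, so that the fold fell from 17.4 to 9.43 with the call kept. Among the 196 pairs of arms tested, 82.1% were called, 40.8% toward 5p and 41.3% toward 3p, and the median absolute log2 ratio was 3.13. miR-486 ranked 75 of 196 by the size of its ratio.

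The arms of miR-144 were nearer to balance in counts, and their call depended on the scaling. The 5p arm held 43.5%, 37.8% and 45.5% of arm counts, with Wilson 95% intervals of 25.6% to 63.2%, 24.1% to 53.9% and 29.8% to 62.0%. miR-144-3p was the higher in 3 of 3 libraries, but each interval held 50%. The log2 ratio of 5p to 3p was -0.46 ± 0.34 (SE, edgeR adjusted p = 0.249), with a 95% interval from -1.32 to 0.40. The pair was thus among the 35 of 196 not called, and the interval as a fold of 5p over 3p ran from 0.401 to 1.32. With TMM scaling over the arm columns, which scales each column on its own, the log2 ratio was -1.37 (edgeR adjusted p = 0.0164). The pair was then called toward 3p. That scaling moved the calls of all 196 pairs toward 3p, with 62 toward 5p and 98 toward 3p. Without it these were 80 and 81. With 23 to 37 counts of both arms per library, a smaller preference was not detectable at this depth.

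**Figure D4:**
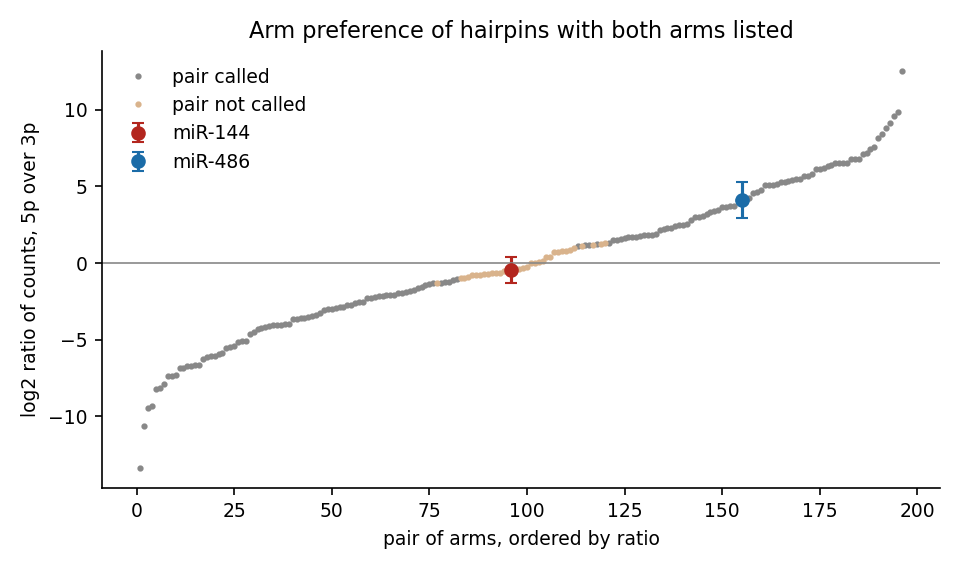
Log2 ratio of 5p to 3p counts for 196 pairs of arms in order, with miR-144 and miR-486 in color and bars for 95% intervals. miR-486 lies at 4.12, and the interval of miR-144 at -0.46 crosses 0.

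miR-486 was listed in pairs of rows, and the rows were used to see how its reads had been divided. In GENCODE on GRCh38, MIR486-1 is a minus-strand gene in an intron of ANK1, on chromosome 8 from 41660441 to 41660508. MIR486-2 is on the plus strand from 41660444 to 41660507, so all of its 64 bases overlap MIR486-1 on the opposite strand. Each hairpin row was set against the sums of a 5p and a 3p row, and of 8 such pairings only 2 equalled a hairpin row in 3 of 3 libraries, 1 for each hairpin. By these sums, the miR-486 hairpin held 102, 115 and 142 counts of 5p with 12, 8 and 3 of 3p. The copy held 120, 147 and 116 counts of 5p with 12, 5 and 5 of 3p. Both rows were dominated by the 5p arm. The copy's share of miR-486-5p counts was 54.1%, 56.1% and 45.0%, with Wilson 95% intervals of 47.5% to 60.5%, 50.1% to 62.0% and 39.0% to 51.1%. The split was near even, as for most names with 2 rows: the larger row held 51.6% of miR-486-5p counts over all libraries, against a median of 51.4% over 44 such names. Reads of a strand that both copies encode cannot be assigned to either, so the levels of the rows are uncertain and their sum is the firmer value.

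The reads of the erythroid hairpins fell almost entirely in annotated arms. For miR-451a, all 52 counts of the hairpin over the 3 libraries were counts of its single mature strand. For miR-486 and its copy, all 382 and 405 counts lay in the 5p or 3p arm. The miR-144 hairpin had 96 counts, of which 3 were outside its arms, and the share inside was 97.3% ± 2.57 (SD, n = 3). Among 532 other hairpins whose arms each had 1 row, the median share was 99.1%, and 23.1% had every count in an arm. Among the 350 of them with 1 listed arm, the median was 95.8% and 22.9% had every count in the arm. In such hairpins the counts of an annotated arm that had no row would lie outside. miR-451a has 1 annotated strand, so these hairpins are not strictly alike to it. Which trimmed ends of miR-451a were present cannot be read from counts per feature.

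Lists of other miRNAs, chosen by what they are known for, placed these levels among the cell types of blood. Of 7 other miRNAs abundant in red blood cells, 6 had a row (miR-363-3p had none), and all 6 were called higher than miR-451a and miR-486-5p. By edgeR, 65.5% of 782 mature names were called against miR-451a, 61.1% higher and 4.35% lower. Against miR-486-5p 86.4% were called, 29.3% higher and 57.2% lower, and against miR-144-3p 68.7%, 57.9% higher and 10.7% lower. As in the hairpin fits, all rows hold the counts of the same reference, so the p-values for the lists are too small. No fit with unshared spread was run for these mature names. The list had a median log2 ratio to miR-451a of 11.18, against 1.97 over all names. The highest was miR-92a-3p, of the miR-17 to miR-92a cluster, with 1548885 ± 310450 FPKM, and the lowest was miR-22-3p, with 50107 ± 9045 FPKM (SD, n = 3). miR-16-5p, a repressor of cell cycle genes that is often set beside miR-451a in studies of red cells, had 241413 ± 131335 FPKM and was at least 2423-fold above miR-451a in each library. These 6 are also widely expressed outside the red cell lineage.

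Of 6 miRNAs known to fall as erythroid cells mature, 5 were called higher than miR-451a and miR-486-5p. miR-221-3p and miR-222-3p, which repress the receptor KIT, had 591323 ± 278015 and 353351 ± 71194 FPKM (SD, n = 3). miR-155-5p was at least 11146-fold above miR-451a in each library. miR-150-5p was the exception. It had 26.3, 47.6 and 85.6 FPKM, and its log2 ratio to miR-451a of -0.45 ± 0.51 (SE, edgeR adjusted p = 0.442) was not called, while it was called lower than miR-486-5p.

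All 3 myeloid and blood-wide miRNAs were called higher than both erythroid references. miR-223-3p, which is also on the list that falls in maturation and is a marker of granulocytes and monocytes, had 91627, 279634 and 321370 FPKM, which was 2443-fold to 4381-fold the level of miR-451a within libraries. miR-142-3p, found throughout blood cells, had 528779 ± 277090 FPKM (SD, n = 3). miR-126-3p and miR-126-5p, found in blood stem cells, megakaryocytes and vessel lining, were also both called higher, with miR-126-3p at 134443 ± 28901 FPKM (SD, n = 3).

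Muscle miRNAs were of interest because miR-486 is shared by red cells and muscle. Only 2 of the 7 mature names searched had a row. miR-1-3p had none under that name, so its mature level is not given. Its hairpins mir-1-1 and mir-1-2 did have rows, at 522 ± 26.0 and 502 ± 56.2 FPKM (SD, n = 3). Both means were above the 162 and 182 FPKM of the miR-486 hairpin rows, a difference that was not tested. miR-499a-5p, encoded in a myosin gene, had 457, 869 and 655 FPKM and a log2 ratio to miR-486-5p of -0.64 ± 0.22 (SE, edgeR adjusted p = 0.0179), which was under the size needed for a call. miR-133a-3p had 165, 398 and 440 FPKM and was called lower than miR-486-5p (log2 ratio -1.68 ± 0.29 SE, edgeR adjusted p = 0.000229). Both were called higher than miR-451a and miR-144-3p. miR-122-5p, the main miRNA of liver, had 308, 204 and 183 FPKM. It was called higher than miR-451a, with a log2 ratio of 1.72 ± 0.47 (SE, edgeR adjusted p = 0.000461), and lower than miR-486-5p. The arms of the miR-144 cluster thus had lower means than the 3 miRNAs of muscle and liver found by mature name in this blood cell line.

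**Figure D5:**
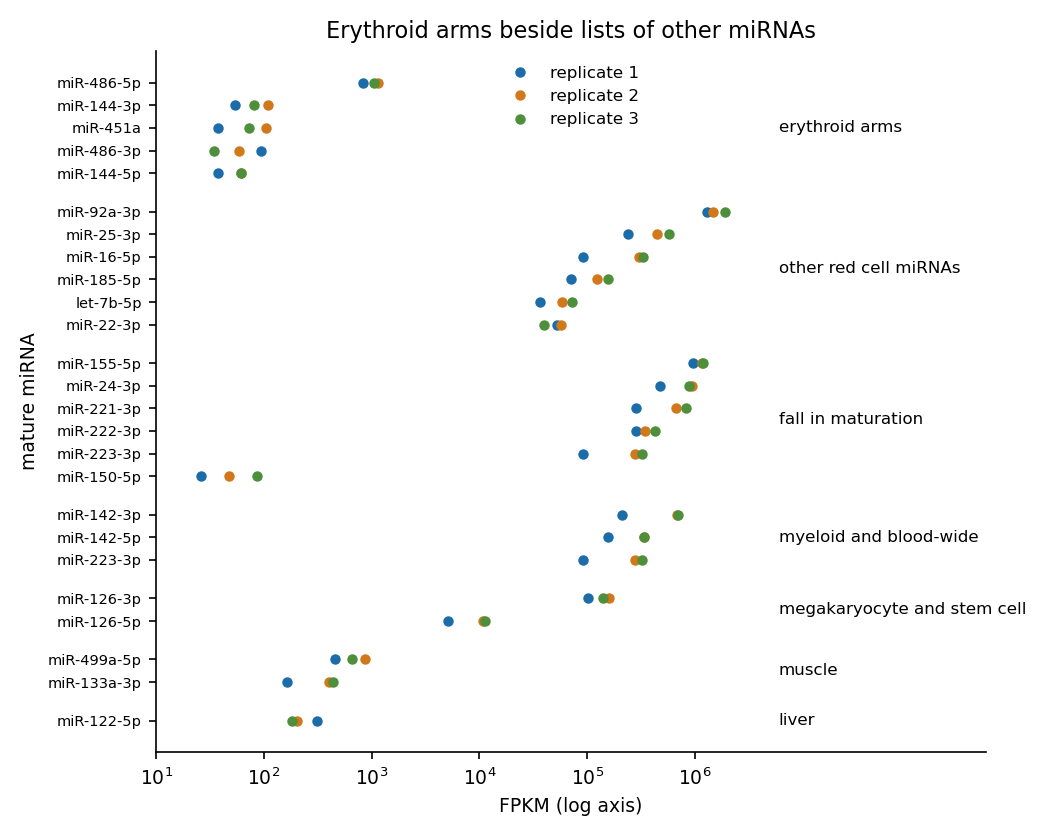
FPKM (log axis) of the 5 erythroid arms and of the listed members of each list, with a point for each replicate. miR-451a, miR-486-3p, both arms of miR-144 and miR-150-5p lie between 26.3 and 110 FPKM, and no myeloid miRNA lies below 91627 FPKM.

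The names nearest in level to each arm were found by the Euclidean distance of log2(FPKM + 1) over the 3 libraries. For miR-451a they were miR-1234-3p, miR-548s and miR-548j-3p, at distances of 0.264, 0.304 and 0.312. For miR-144-3p they were miR-6731-3p, miR-4781-3p and miR-3942-5p, and for miR-144-5p they were miR-181c-5p, miR-6797-3p and miR-6894-3p. miR-486-5p lay nearest to miR-500a-5p, miR-149-5p and miR-2277-5p, with distances of 0.189, 0.190 and 0.287. For miR-486-3p, which was highest in replicate 1, they were miR-3652, miR-99a-5p and miR-1908-3p, and miR-3652 had 17, 13 and 7 counts. With 3 libraries such likeness describes level and the shift between libraries only.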

How the data were processed

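Small RNA of 3 EV libraries was analysed. Per the study's methods, reads were counted over miRBase release 21. The submitters' processing notes name Novoalign 2.08.03 and the builds hg19 and mm10 with no role. The authors deposited raw read counts and FPKM for each feature. Lengths and 1 total per library were derived with the lengths of miR-144-3p and the miR-144 hairpin set 1 base short of annotation. Counts divided by FPKM then gave whole lengths for the other rows. The miR-451a hairpin came to 71 bases, 1 short of its annotated 72. Every deposited row reached 10 counts in a library. Rows of 1 mature name were summed.

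Levels are FPKM as deposited. Ratios were tested on counts by edgeR 4.0.16 in R 4.3.3 (quasi-likelihood) over all hairpins, names or pairs, with the library as a block and totals as offset, and feature length as a further offset except between arms. Adjustment was by Benjamini-Hochberg. SE and 95% intervals were derived from the F statistic. Alternatives used limma 3.58.1 and DESeq2 1.42.0. The fits were tested on simulated data in which rows shared no reference, so the effect of a shared reference was not tested. Intervals of shares are Wilson intervals (scipy 1.17.1). Members and lists were chosen with earlier results of these data known, and named miRNAs were all members, their neighbours, the lists and the 3 names nearest in level to each arm. The replicates are labelled as triplicate cultures.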

Additional observations from a re-analysis of the deposited data

How the results depend on the processing

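Of 215 values recomputed under an alternative, 0 reversed and 1 tested ratio changed its call. The other tested ratios kept their direction and call, although some moved in size. With TMM scaling over the arm columns, the log2 ratio of miR-144-5p to miR-144-3p was -1.37 (edgeR adjusted p = 0.0164) and was called toward 3p. That of miR-486-5p to miR-486-3p was 3.24. With this scaling more pairs were called toward 3p (98) than toward 5p (62), against 81 and 80 in the main fit. The adjusted p of the miR-144 arms under the other alternatives ran from 0.0665 to 0.631. Totals without miR-21 raised the means by construction, to 44.8 FPKM for the miR-144 hairpin, 226 for miR-486, 257 for its copy, 73.5 for miR-144-5p, 113 for miR-144-3p and 1408 for miR-486-5p. The mean of the rows in place of their sum gave 503 FPKM for miR-486-5p and 31.3 for miR-486-3p. The arm with the most counts alone held 56.1% of the miR-144 hairpin, 93.6% of miR-486 and 94.5% of its copy. With both miR-486 rows summed, the log2 ratio of miR-486 was 3.44 to miR-144 and 4.09 to miR-451a, and between main mature arms these were 3.65 and 3.88. The log2 ratio of miR-486 to miR-144 ran from 2.22 to 2.54 with 1 replicate left out, and that to miR-451a from 2.76 to 3.32. Without the length offset these ratios were 2.01 and 2.92.

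The hairpins called lower than the miR-144 hairpin numbered 130 and ran from 18, with at least 10 counts in every library, to 154. Those lower than miR-451a numbered 33 and ran from 1, with the same filter, to 54. The latter was without replicate 1, against 11 without replicate 2 and 9 without replicate 3. The cause was not tested, beyond fewer hairpins being tested where a filter was set. The fits with unshared spread, miR-486-5p as the reference and miR-486 rows apart were chosen after seeing the data. All ratios were paired within libraries. Depth limits the arms with at most 24 counts in a library, which are all but miR-486-5p, and 1 count of miR-451a was worth 3.75 to 4.33 FPKM.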
